A study of Mus musculus with 42 samples.

Results

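The genes described here are the 4 FGF ligands *Fgf3*, *Fgf8*, *Fgf10* and *Fgf15* and 6 genes that respond to ERK signalling, namely *Spry1*, *Spry2*, *Spry4*, *Dusp6*, *Etv4* and *Etv5*. They were chosen by name, as ligands and common readouts of one pathway, and all 10 were found among the 56953 genes of the count table. Bulk RNA sequencing was done on 21 mouse embryos collected at stage E8.5i, with 1 library from each side of the heart field and 42 libraries in all. The dissected tissue, called heart field here, was mostly heart field of the dorsal pericardial wall as far as the second somite. Head, back, heart tube and lower trunk had been taken off, and a midline cut gave a left and a right sample.

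The embryos carried either 2 wild-type copies of *Ccdc40* (Ccdc40+/+, 5 embryos, 4 male and 1 female) or 2 copies of the lnks allele (Ccdc40lnks/lnks, 16 embryos) on a background that the methods spell C56Bl6J. *Ccdc40* encodes a component of motile cilia, and lnks is a chemically induced nonsense point mutation in the germ line that abolishes the flow at the node. The labels name no treatment and no transgene. The mutants fell by the direction in which their heart tube had looped into 11 with rightward looping (6 male, 5 female) and 5 with inverted looping (3 male, 2 female). In the study the mutants with rightward looping comprise both situs solitus and heterotaxy embryos, which the labels do not tell apart, so every value of that group mixes both phenotypes. Each embryo is a replicate, and left and right come from the same embryo. The question was whether these genes differed between the left and the right heart field, and whether that difference depended on genotype and looping direction.

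FGF ligands are secreted proteins that bind receptor tyrosine kinases and activate the RAS, RAF, MEK and ERK cascade. Active ERK induces the ETS transcription factors *Etv4* and *Etv5*, and also induces its own inhibitors, the Sprouty proteins and the phosphatase *Dusp6*, so that transcripts of both kinds are widely used as readouts of the pathway. In the heart field *Fgf8* and *Fgf10* are known for their role in the growth of the second heart field, which adds cells to the poles of the heart tube.

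The median library held 43458644 counts, the smallest 36073684 and the largest 62970327. *Ccdc40* itself had a median of 20.8 CPM (counts scaled to a common library size) in the wild-type libraries (15.2 to 26.5), 12.4 in mutants with rightward looping (8.83 to 14.6) and 12.1 in mutants with inverted looping (9.99 to 14.8). Wild-type and mutant libraries did not overlap. Of the defining markers of the second heart field, *Isl1* was between 51.8 and 139 CPM in every library, but the posterior markers *Tbx5* (0.352 to 111 CPM), *Wnt2* (3.02 to 280 CPM) and *Gata4* (2.51 to 188 CPM) fell far lower, all 3 to their minimum in the right library of mutant embryo 2 with rightward looping. The summed level of 9 posterior markers was 317 CPM on the left and 210 on the right of that embryo, against 457 or more in every other library. Heart tube muscle genes such as *Myh6* (7.07 to 1507 CPM) and *Actc1* (33.3 to 1306 CPM) and neural tube genes such as *Hes5* (0.68 to 117 CPM) and *Pax6* (3.23 to 113 CPM) were present at levels that varied widely between libraries. In bulk tissue, fewer cells of a type and less RNA per cell cannot be told apart.

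Libraries of 3 embryos stood apart for the genes described here. The right library of wild-type embryo 3 was the lowest of all 42 for *Fgf10*, *Spry2*, *Spry4*, *Etv4* and *Etv5*, and the highest for *Fgf15*. Its left library was the lowest for *Fgf3* and *Spry1*. Mutant embryo 2 with rightward looping held the highest value for 6 genes, which were *Fgf8*, *Fgf10*, *Spry1*, *Dusp6*, *Etv4* and *Etv5*, beside the low posterior markers given above. Mutant embryo 3 with inverted looping was the only embryo of its group with *Fgf8*, *Spry2*, *Dusp6*, *Etv4* and *Etv5* higher on the left. Some results that these embryos bear on are given with and without them. The wild-type ratios between sides and the levels on the right are given with all embryos only.

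All 10 genes were detected in every library, with between 145 and 11891 counts per gene and library. Levels of different genes were compared as CPM per kilobase of exon, as the mean of both sides of an embryo with the SD over 21 embryos. The phosphatase gene *Dusp6* was the most abundant at 34.2 ± 5.29, followed by *Fgf8* at 24.1 ± 6.72 and *Etv5* at 20.4 ± 3.56. *Spry2* (11.1 ± 1.61) and *Etv4* (9.49 ± 1.75) came next. The lowest of the order were *Fgf15* (6.83 ± 4.56), *Spry1* (5.90 ± 0.872), *Fgf3* (5.68 ± 3.53), *Fgf10* (4.76 ± 0.978) and *Spry4* (3.94 ± 0.740). Neighbours in this order overlapped within 1 SD, except that *Etv5* stood above *Spry2*. The ligands differed in how much they varied. Over the 42 libraries the coefficient of variation was 90.9% for *Fgf15* and 69.0% for *Fgf3*, against 16.0% for *Spry1* to 32.1% for *Fgf8* among the other 8 genes.

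**Figure D1:**
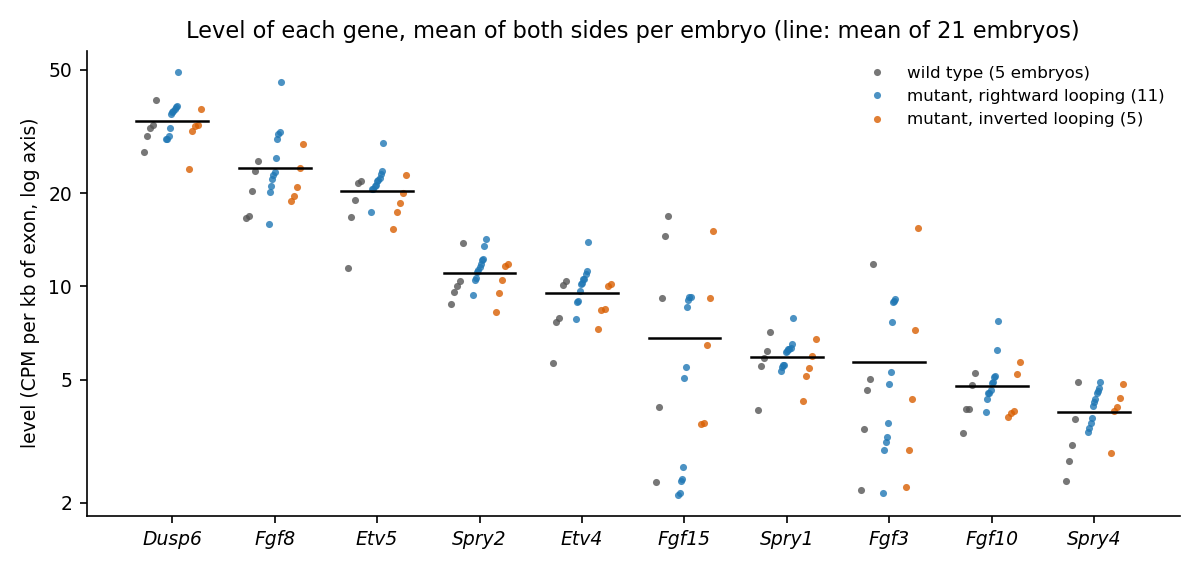
Level of each of the 10 genes in CPM per kilobase of exon on a log axis, 1 point per embryo (mean of both sides), coloured by group, with a line at the mean of 21 embryos. *Fgf15* and *Fgf3* spread far more widely than their neighbours in the order, and the groups overlap for every gene.

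The proximal promoters of 5 genes are shown. The levels of *Etv4* and *Etv5* had the highest rank correlation over libraries of any pair of the 10 genes, *Fgf3* and *Fgf15* were the ligands with the widest range, and *Fgf10* held the most ETS cores. The windows are the 250 bases before the start of the transcript that the annotation marks as canonical for each gene, in GRCm39, read 5′ to 3′ on the strand of the gene, with the core of an ETS binding site (GGAA, or TTCC for the other strand) in capitals. *Etv4* lies at chr11:101676198-101676447 on the minus strand, *Etv5* at chr16:22258484-22258733 on the minus strand, *Fgf3* at chr7:144391349-144391598, *Fgf15* at chr7:144450018-144450267 and *Fgf10* at chr13:118850665-118850914, these 3 on the plus strand. Other annotated transcripts start further upstream for 2 of these genes, *Fgf10*, whose gene begins at position 118806327, and *Etv5*, whose gene on the minus strand begins at 22259662.
Etv4: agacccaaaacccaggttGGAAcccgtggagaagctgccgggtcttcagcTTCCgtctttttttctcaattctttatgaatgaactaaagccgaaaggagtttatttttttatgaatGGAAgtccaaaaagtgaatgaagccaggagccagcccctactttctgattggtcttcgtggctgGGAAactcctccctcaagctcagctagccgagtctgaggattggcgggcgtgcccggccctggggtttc
Etv5: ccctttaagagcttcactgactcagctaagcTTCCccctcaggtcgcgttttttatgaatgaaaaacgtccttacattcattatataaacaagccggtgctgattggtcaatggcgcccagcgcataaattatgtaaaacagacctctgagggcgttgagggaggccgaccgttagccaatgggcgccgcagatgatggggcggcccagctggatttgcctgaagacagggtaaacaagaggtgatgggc
Fgf3: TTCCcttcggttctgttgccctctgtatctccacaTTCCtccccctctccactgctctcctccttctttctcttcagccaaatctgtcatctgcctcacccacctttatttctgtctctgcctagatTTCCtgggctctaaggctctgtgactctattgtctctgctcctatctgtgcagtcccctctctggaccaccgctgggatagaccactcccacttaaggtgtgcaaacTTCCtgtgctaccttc
Fgf15: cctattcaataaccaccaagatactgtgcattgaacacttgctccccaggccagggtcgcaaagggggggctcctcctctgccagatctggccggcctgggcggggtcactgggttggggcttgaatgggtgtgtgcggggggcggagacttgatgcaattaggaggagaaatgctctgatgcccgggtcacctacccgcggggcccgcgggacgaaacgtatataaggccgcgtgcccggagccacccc
Fgf10: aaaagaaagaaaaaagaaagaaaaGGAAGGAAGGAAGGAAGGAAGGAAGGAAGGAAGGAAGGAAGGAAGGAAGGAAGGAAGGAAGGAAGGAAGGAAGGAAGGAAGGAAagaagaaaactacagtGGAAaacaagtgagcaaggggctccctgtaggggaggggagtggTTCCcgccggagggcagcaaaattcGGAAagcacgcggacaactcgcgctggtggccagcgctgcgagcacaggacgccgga

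The core was present 24 times in the *Fgf10* window, mostly within 1 tandem repeat, 4 times in *Fgf3* and *Etv4*, once in *Etv5* and not at all in *Fgf15*. The other windows held 6 cores for *Dusp6*, 3 for *Spry1* and *Spry4* and 1 for *Fgf8* and *Spry2*. Of 21770 promoters of the same length, 93.9% held the core, with a median of 3. At least 24 cores were held by 2 promoters (0.00919%), that of *Fgf10* included. The longer word CCGGAA, searched on both strands and overlapping the core, was found in *Spry4* alone of the 10 genes, against 12.4% of all promoters. *Etv4* and *Etv5* shared a run of 13 letters, ttttttatgaatg, which was found in 0.0138% of the promoters. The longest shared run of the other 44 pairs was 6 to 11 letters. These matches describe the letters of the windows only.

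Rank correlations of the levels over the 42 libraries differed between pairs of the 10 genes. The highest rank correlation was that of *Etv4* with *Etv5* (Spearman rho 0.87), followed by *Spry2* with *Etv4* (0.80) and *Dusp6* with *Etv5* (0.76). *Fgf10* varied with the response genes, most with *Spry2* (0.73) and *Etv4* (0.72). *Fgf3* and *Fgf15*, neighbours on chromosome 7, varied together (0.68) and opposite to *Fgf8* (−0.50 and −0.66). These values describe libraries that come in pairs from 21 embryos and share dissection and depth, and they carry no test.

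**Figure D2:**
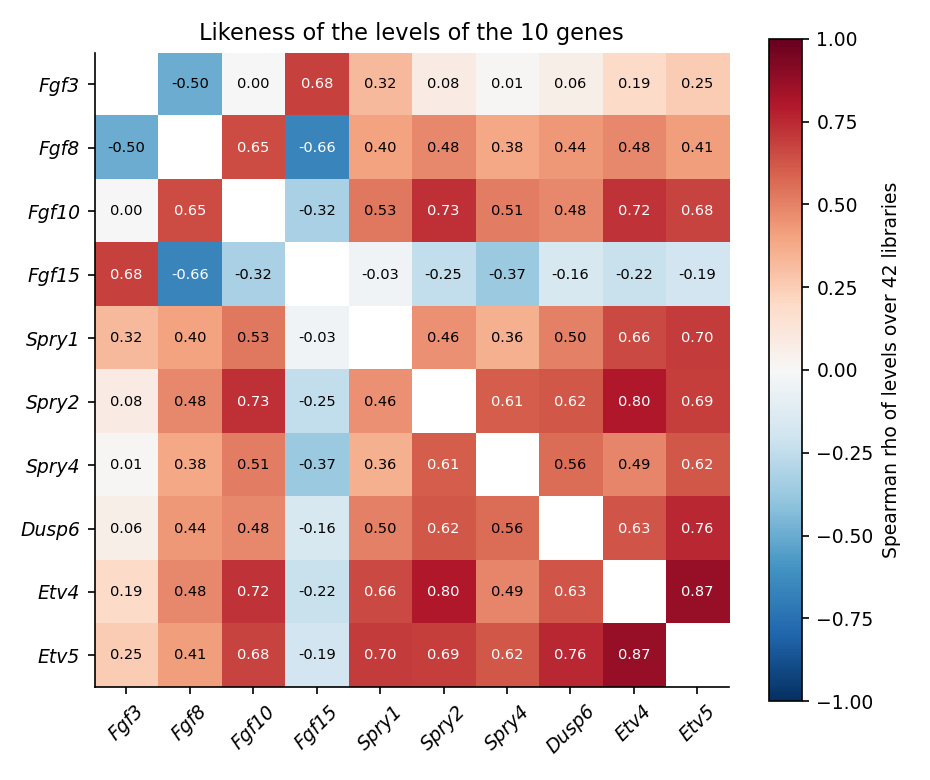
Spearman rho of log2 CPM over 42 libraries for each pair of the 10 genes, from −1 (blue) to 1 (red). The 6 response genes and *Fgf10* form a red block with *Etv4* and *Etv5* at 0.87, while *Fgf15* is paired with *Fgf3* at 0.68 and opposed to *Fgf8* at −0.66.

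Among 15069 other genes with a median of at least 1 CPM, those most like each ligand also differed. *Fgf8* was most like *Itpr1* (rho 0.81), the second heart field factors *Isl1* (0.80) and *Nkx2-6* (0.79), *Bmp7* (0.77) and *Tcf21* (0.76). *Fgf10* was most like *Asah2* (0.72), the FGF antagonist *Il17rd* (0.71), *Samd10* (0.70), *Nrg1* (0.69) and *Isl1* (0.68). *Fgf15* was most like *Ptn*, *Sp8*, *Foxb1*, *Mapk11* and *Lfng*, all at 0.92, and *Fgf3* was most like the neuronal tubulin *Tubb3* (0.86), *Crabp1* (0.86), *Epha4* (0.84), *Krt23* (0.81) and *Sox9* (0.80). The mean of the 6 response genes was most like *Dusp4* (0.77), another ERK phosphatase, *Esrp1* (0.76), *Etv1* (0.76), an ETS factor of the same subfamily, *Tril* (0.74) and *Cacna1b* (0.73).

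In wild-type embryos none of the 10 genes was called between sides. Right over left was tested in each group with edgeR's quasi-likelihood test, the embryo as a block and Benjamini-Hochberg adjustment over all genes, and a gene was called at an adjusted p under 0.05. In wild types 0 of 23182 genes were called (0%), 639 had an unadjusted p under 0.05 and DESeq2 called 20. No gene of the 10 was called by either tool or had an unadjusted p under 0.05, which 2.76% of all genes had. Their log2 ratios of right over left lay between −0.33 ± 0.18 (SE) for *Spry4* and 0.44 ± 0.35 for *Fgf3*. In single wild types the ratio of *Spry4* ran from −0.95 to 0.33 and that of *Fgf3* from −1.34 to 1.43. Embryo 3 held the lowest ratio of *Spry4* and the highest of *Fgf3*. *Spry4* was higher on the left in 4 of 5 wild types (unadjusted p = 0.0964 by edgeR's quasi-likelihood test). The missing calls rest on 5 embryos and do not show that both sides were alike. An exact sign-flip test over 5 embryos cannot give a p below 0.0625.

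In mutants with rightward looping none of the 10 genes was called either, where 6 of 22795 genes (0.0263%) were. The largest difference was that of *Spry4*, −0.41 ± 0.11 (adjusted p = 0.974, unadjusted p = 0.00278). In this group 3.59% of all genes had an unadjusted p under 0.05, and *Spry4* was the only one of the 10. In mutants with inverted looping 468 of 22960 genes (2.04%) were called, and 2 of the 10 genes were among them. *Spry4* was higher on the right, as were 1.72% of all genes, and *Fgf15* was higher on the left, as were 0.318%. At an unadjusted p under 0.05, 4 of the 10 were higher on the right (*Fgf8*, *Spry2*, *Spry4* and *Dusp6*), against 9.29% of all genes, and 2 on the left (*Fgf3* and *Fgf15*), against 5.81%. The median log2 ratio of the 10 genes was 0.18, against −0.01 over all genes tested.

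**Figure D3:**
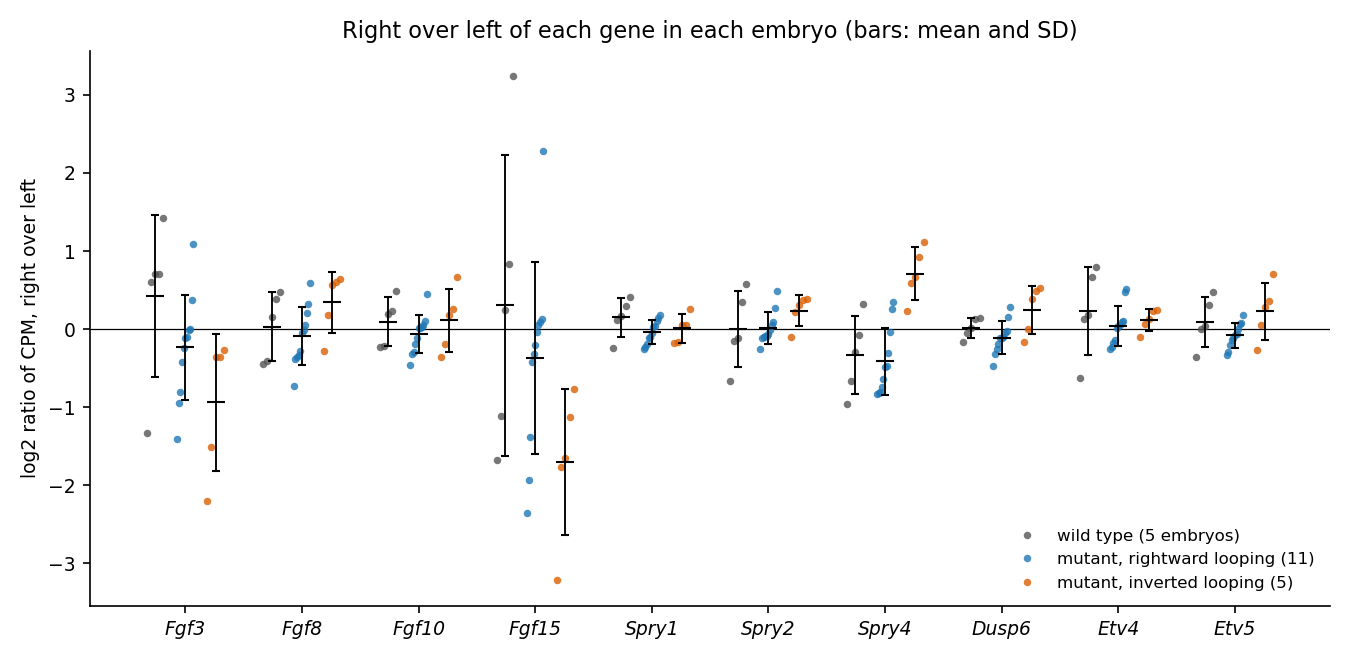
Log2 ratio of CPM, right over left, of each gene in each embryo, coloured by group, with bars at the mean and SD. In mutants with inverted looping all 5 points of *Spry4* lie above 0 and all 5 of *Fgf15* and *Fgf3* lie below 0, and the groups overlap for every gene.

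Among the ligands, *Fgf8*, the main FGF of the anterior heart field, had wild-type levels of 23.8, 39.4, 26.1, 18.8 and 30.1 CPM on the left and 31.2, 28.9, 19.6, 26.2 and 33.6 on the right of embryos 1 to 5. Mutants with rightward looping had 24.3 to 76.9 CPM on the left (median 34.7) and 18.7 to 46.6 on the right (median 31.1). Mutants with inverted looping had 26, 30.4, 29.0, 26.5 and 20.5 CPM on the left and 39.4, 47.5, 23.9, 30.0 and 30.5 on the right. The right exceeded the left in 4 of the 5 embryos of the last group, and all groups overlapped. The log2 ratio in that group was 0.36 ± 0.13 (edgeR's quasi-likelihood test, adjusted p = 0.258), and edgeR called it without embryo 3, at 0.51 (adjusted p = 0.0476), as did DESeq2 with all embryos (adjusted p = 0.0292).

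*Fgf10*, which is expressed with *Fgf8* in the second heart field, was not called in any group. With inverted looping it had 17.0, 19.9, 31.7, 18.1 and 20.9 CPM on the left and 20.5, 31.7, 24.7, 20.5 and 18.2 on the right. The right was higher in 3 of 5 embryos and the log2 ratio was 0.12 ± 0.14 (edgeR, adjusted p = 0.758), and 0.24 without embryo 3 (adjusted p = 0.502). In wild types it was 0.09 ± 0.12 and in mutants with rightward looping −0.07 ± 0.07.

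*Fgf15*, an FGF best known from the embryonic neural tube and pharynx, had the widest range. Wild types had 38.6, 5.12, 9.85, 40.9 and 19.0 CPM on the left and 17.8, 9.21, 93.6, 48.3 and 5.94 on the right. Mutants with rightward looping had 5.26 to 46.4 CPM on the left (median 10.4) and 3.98 to 28.8 on the right (median 9.04). Neither group was called.

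With inverted looping *Fgf15* had 16.8, 30.7, 58.2, 15.1 and 50.7 CPM on the left and 5.32, 8.99, 34.1, 6.93 and 5.41 on the right. The left was higher in 5 of 5 embryos, which held for 6.92% of all genes in this group. Both sides overlapped, and so did the ratios of all groups. *Fgf15* was lower on the right by a log2 ratio of −1.67 ± 0.31 (edgeR's quasi-likelihood test, adjusted p = 0.036). The call was lost without embryo 1, 2 or 4, where the log2 ratio was −1.68, −1.65 and −1.83 and the highest adjusted p 0.108, and with males alone, where it was −1.21. The exact two-sided sign-flip test over 5 embryos gave p = 0.0625, the smallest it can give. The exons of *Fgf15* share 761 bases with *Gm26793* on the other strand, which had 1810 counts over all libraries against 39449 for *Fgf15*. Exons of *Spry1* (909 bases), *Dusp6* (685), *Etv5* (636) and *Spry2* (564) also overlap, each with 1 opposite-strand gene by the length given, those of *Etv4*, *Fgf8* and *Fgf10* by shorter lengths, and those of *Spry4* and *Fgf3* with none. Since the strand setting of the counting is not given in the sources used here, reads of such stretches cannot be assigned between the genes.

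*Fgf3*, known for its role in the patterning of the hindbrain and inner ear, had 10.7, 7.95, 3.59, 28.4 and 21.8 CPM on the left and 17.5, 13.0, 9.73, 43.2 and 8.62 on the right of wild types. With inverted looping it had 13.3, 14.7, 52.7, 7.47 and 36.0 CPM on the left and 4.65, 11.5, 41.1, 6.21 and 7.76 on the right. The right was higher in 4 of 5 wild types and the left in 5 of 5 mutants with inverted looping, with overlap of the levels in both. The log2 ratio in the latter was −0.93 ± 0.29 and was not called (edgeR, adjusted p = 0.172), although it was called without a filter on low counts (adjusted p = 0.0272). In mutants with rightward looping it was −0.24 ± 0.18.

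Of the feedback inhibitors, *Spry4*, a Sprouty protein that restrains receptor tyrosine kinase signalling, was the only one called by edgeR with all embryos. DESeq2 also called *Spry2* between sides with inverted looping (adjusted p = 0.0188), and so did edgeR without embryo 3 of that group (adjusted p = 0.04997). Wild types had 18.5, 30.1, 20.5, 18.0 and 35.7 CPM on the left and 17.6, 19.0, 10.6, 22.7 and 29.1 on the right. Mutants with rightward looping had 21.8 to 38.7 CPM on the left (median 30.8) and 16.2 to 33.4 on the right (median 24.3). The left was higher in 4 of 5 wild types and in 9 of 11 mutants with rightward looping.

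With inverted looping *Spry4* had 14.8, 18.1, 29.5, 18.6 and 20.8 CPM on the left and 23.6, 39.4, 34.6, 35.2 and 31.5 on the right. The right was higher in 5 of 5 embryos, by log2 ratios of 0.67, 1.12, 0.23, 0.92 and 0.60, which held for 7.35% of all genes in this group. The left library of embryo 3 overlapped the right libraries of the others. *Spry4* was higher on the right by 0.72 ± 0.12 (edgeR's quasi-likelihood test, adjusted p = 0.0251). Without any 1 of the 5 embryos the log2 ratio was 0.62 to 0.84 and the adjusted p 0.0112 to 0.113. Of these 5 fits it was called only in that without embryo 3, and it was not called with males alone, where the log2 ratio was 0.76. The exact sign-flip test gave p = 0.0625 here, the smallest possible, and p = 0.0146 in mutants with rightward looping, which was 0.439 after adjustment over 30 tests.

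**Figure D4:**
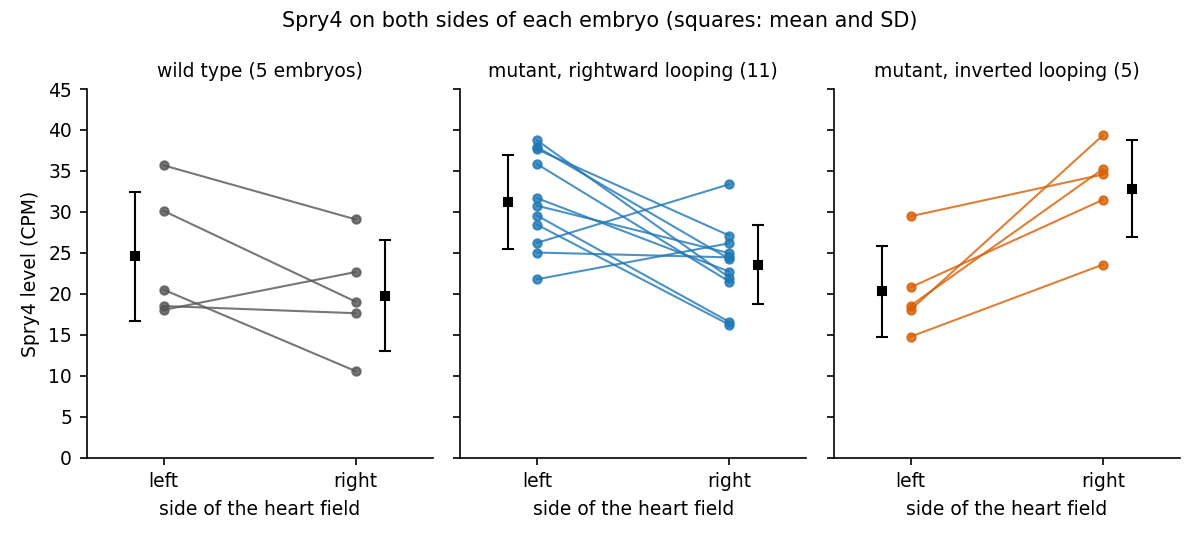
*Spry4* level in CPM on the left and right of each embryo, joined by a line, in the 3 groups, with squares at the mean and bars for the SD. The lines fall from left to right in 4 of 5 wild types and 9 of 11 mutants with rightward looping, and they rise in 5 of 5 mutants with inverted looping.

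*Dusp6*, a phosphatase that inactivates ERK in the cytoplasm, had 96.8, 104, 114, 93.6 and 80.9 CPM on the left and 126, 150, 101, 131 and 81.0 on the right with inverted looping. The right was clearly higher in embryos 1, 2 and 4, nearly equal in embryo 5 and lower in embryo 3. The log2 ratio was 0.26 ± 0.10 (edgeR, adjusted p = 0.279) and 0.36 without embryo 3 (adjusted p = 0.104), against 0.01 ± 0.06 in wild types and −0.11 ± 0.06 in mutants with rightward looping.

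*Spry2*, a second Sprouty inhibitor, had 36.8, 52.9, 61.9, 49.98 and 43.6 CPM on the left and 48.1, 68.6, 57.8, 58.2 and 54.1 on the right of mutants with inverted looping. The right was higher in 4 of 5. The log2 ratio was 0.25 ± 0.08 (edgeR, adjusted p = 0.17), −0.00 ± 0.17 in wild types and 0.01 ± 0.06 in mutants with rightward looping. Its relative *Spry1* had ratios of 0.02 ± 0.08 with inverted looping (edgeR, adjusted p = 0.945), 0.15 ± 0.10 in wild types and −0.04 ± 0.05 with rightward looping. The 3 Sprouty genes were not called together in any of them.

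The transcription factors *Etv4* and *Etv5*, which carry the ERK signal to ETS target genes, did not pass the test in any group. With inverted looping *Etv4* had 24.6, 30.3, 33.5, 22.6 and 24.4 CPM on the left and 28.8, 33.2, 31.3, 23.7 and 29.0 on the right. *Etv5* had 126, 131, 188, 87.6 and 128 CPM on the left and 153, 169, 156, 143 and 133 on the right. Both were higher on the right in 4 of 5 embryos, embryo 3 being the exception, and both sides overlapped. The log2 ratios were 0.12 ± 0.07 for *Etv4* (edgeR, adjusted p = 0.486) and 0.24 ± 0.12 for *Etv5* (edgeR, adjusted p = 0.396). Without embryo 3 the ratio of *Etv4* was 0.18 (adjusted p = 0.395) and that of *Etv5* was 0.36 (adjusted p = 0.134).

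Whether the ratio of right over left differed between groups was tested as an interaction of side and group over all 42 libraries, so that the 3 comparisons share their embryos pairwise. *Spry4* was the one gene of the 10 called by edgeR with all embryos. Between mutants with inverted and rightward looping 82 of 26335 genes (0.311%) were called, 0.292% with the higher ratio under inverted looping, and *Spry4* was among these with a difference of 1.12 ± 0.21 (edgeR's quasi-likelihood test, adjusted p = 0.0184). Its ratios ran from −0.83 to 0.35 in the 11 embryos with rightward looping and from 0.23 to 1.12 in the 5 with inverted looping, so that they overlapped, while 0.387% of all genes did not overlap. An exact two-sided permutation test over the 4368 regroupings of these embryos gave p = 0.000687, which was 0.0206 after Benjamini-Hochberg adjustment over 30 comparisons. The difference was 1.12 without wild-type embryo 3, 1.19 without mutant embryo 2 with rightward looping and 1.24 without mutant embryo 3 with inverted looping. It was no longer called without embryo 2, 4 or 5 with inverted looping, the highest adjusted p being 0.0936, nor with males alone.

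At an unadjusted p under 0.05 the ratios of *Dusp6* (0.35 ± 0.11, p = 0.00444), *Etv5* (0.31 ± 0.13, p = 0.0244) and *Fgf8* (0.44 ± 0.20, p = 0.0371) were also higher with inverted than with rightward looping, as was *Spry4*, where 6.68% of all genes were. None of these was called by edgeR's quasi-likelihood test, with adjusted p = 0.209, 0.383 and 0.433. Exact permutation tests gave p = 0.0172 for *Dusp6*, p = 0.0261 for *Etv5* and p = 0.0552 for *Fgf8*. These were 0.172, 0.196 and 0.262 after adjustment over 30 comparisons. *Fgf15* differed by −1.30 ± 0.67 (edgeR, adjusted p = 0.514), with an exact permutation p = 0.0495, which was 0.262 after that adjustment. Its ratios in embryos with rightward looping ran from −2.35 to 2.28 and covered all but 1 of those with inverted looping.

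Between mutants with inverted looping and wild types 135 genes (0.513%) were called and none of the 10. The closest was *Spry4*, with a difference of 1.04 ± 0.25 (edgeR's quasi-likelihood test, adjusted p = 0.0626, unadjusted p = 0.000435), which DESeq2 called. The difference was 0.88 without wild-type embryo 3 (adjusted p = 0.219). *Fgf3* differed by −1.37 ± 0.48 (adjusted p = 0.192) and *Fgf15* by −1.91 ± 0.81 (adjusted p = 0.299), the latter by −1.25 without wild-type embryo 3. These 3 passed an unadjusted p of 0.05, as 13.6% of all genes did. Between mutants with rightward looping and wild types 0 of 26335 genes (0%) were called by either edgeR or DESeq2, 800 (3.04%) had an unadjusted p under 0.05 by edgeR, and none of the 10 was among these. The difference of *Spry4* was −0.08 ± 0.21.

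Markers of neural tube and heart tube muscle also differed between sides with inverted looping, and those of other tissues are given below. With inverted looping 4 of 9 neural tube genes were called higher on the left (*Pax6*, *Hes5*, *Nkx6-1* and *Olig2*) and none higher on the right. Their summed level was 99.4 to 241 CPM on the left and 19.6 to 184 on the right, and the left was higher in 5 of 5 embryos. In wild types the sum was 16.5 to 197 on the left and 25.2 to 352 on the right, and in mutants with rightward looping 15.8 to 171 and 21.5 to 153. *Sox1* was at 0 in 6 libraries and *Olig2* in 12. Heart tube muscle genes went the other way, 9 of 11 being called higher on the right with inverted looping. Their sum was 1411 to 2745 CPM on the left and 2685 to 5733 on the right.

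The ratio of *Fgf15* followed that of the neural tube list from embryo to embryo. These relations were computed after the values were seen, 40 in all, with permutation tests and Benjamini-Hochberg adjustment. In the 11 mutants with rightward looping, where the list was not called, Pearson's r for *Fgf15* was 0.963 (permutation p = 9e-05, adjusted p = 0.0008) and Spearman's rho 0.682 (permutation p = 0.0254, adjusted p = 0.0635), and r was 0.924 without the 2 embryos farthest from the median. The ratio of *Fgf8* ran against that of the list, with r −0.757 (permutation p = 0.00796, adjusted p = 0.0207) and rho −0.673 (permutation p = 0.0276, adjusted p = 0.0651), and r was −0.551 without the 2 farthest. *Etv5* had r −0.827 (permutation p = 0.00214, adjusted p = 0.00833) and rho −0.709 (permutation p = 0.0184, adjusted p = 0.049), and r −0.717 without the 2 farthest. *Fgf3* had r 0.701 (permutation p = 0.0171, adjusted p = 0.036) and rho 0.636 (permutation p = 0.0403, adjusted p = 0.0805), but r was 0.401 without the 2 farthest, so that this relation rests on them. *Etv4* had r −0.725 (permutation p = 0.0159, adjusted p = 0.0354) and rho −0.6 (permutation p = 0.0557, adjusted p = 0.101), and r −0.742 without the 2 farthest.

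The heart tube muscle list was related to 2 ligands in the same 11 embryos. *Fgf3* ran against it, with r −0.826 (permutation p = 0.00405, adjusted p = 0.0135) and rho −0.791 (permutation p = 0.00588, adjusted p = 0.0196), and r −0.654 without the 2 farthest. *Fgf8* had r 0.756 (permutation p = 0.00755, adjusted p = 0.0207) and rho 0.518 (permutation p = 0.106, adjusted p = 0.157), but r was 0.171 without the 2 farthest, so that this relation rests on them. The lowest adjusted p of r among the other relations within these embryos was 0.0766, for *Spry2* and the neural tube list.

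**Figure D5:**
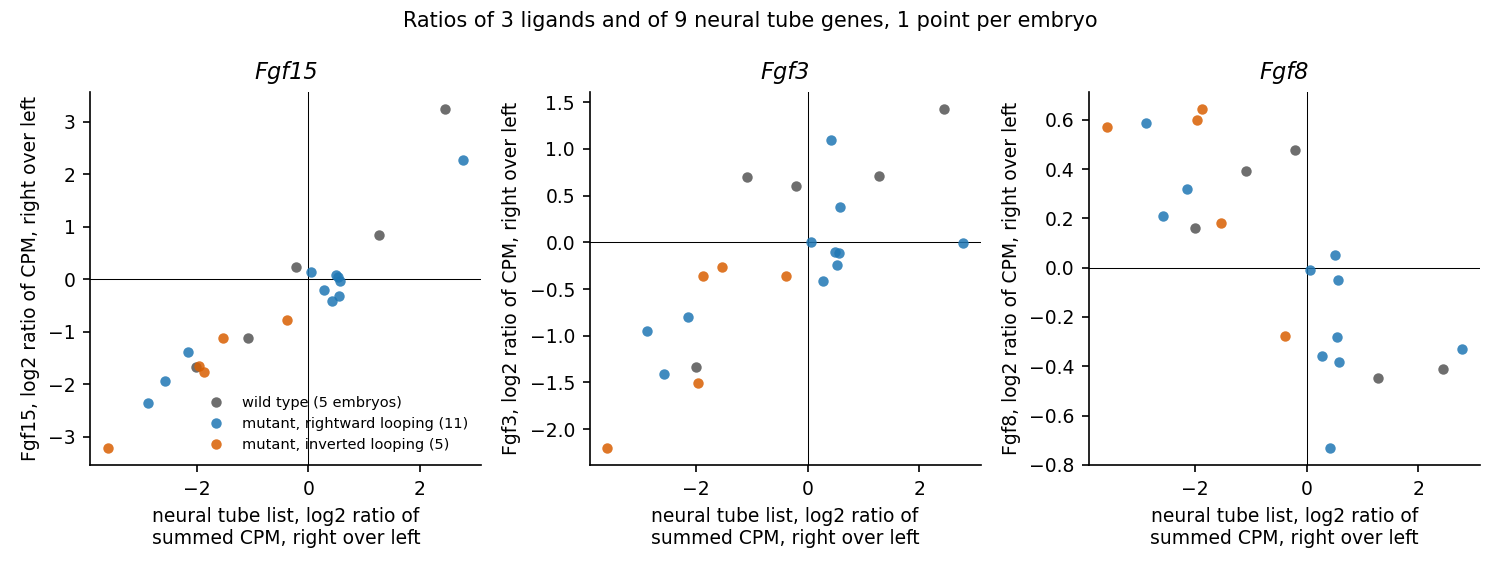
Log2 ratio of right over left of *Fgf15*, *Fgf3* and *Fgf8* against that of the summed CPM of 9 neural tube genes, 1 point per embryo, coloured by group. In the 11 mutants with rightward looping r is 0.963 for *Fgf15*, 0.701 for *Fgf3* and −0.757 for *Fgf8*.

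For *Spry4* no relation passed within these 11 embryos. Against the neural tube list r was −0.469 (permutation p = 0.149, adjusted p = 0.221) and rho −0.564 (permutation p = 0.0765, adjusted p = 0.122), and r was −0.0197 without the 2 farthest. Against the heart tube muscle list r was −0.0498 (permutation p = 0.879, adjusted p = 0.901) and rho 0.127 (permutation p = 0.715, adjusted p = 0.817), and 0.435 without the 2 farthest. Over all 21 embryos, where differences between the groups add to the relation, both lists were related to *Spry4*. Against the neural tube list r was −0.632 (permutation p = 0.00229, adjusted p = 0.00833) and rho −0.643 (permutation p = 0.00242, adjusted p = 0.0108), and r was −0.56 without the 2 farthest. Against the muscle list r was 0.562 (permutation p = 0.0083, adjusted p = 0.0207) and rho 0.673 (permutation p = 0.00121, adjusted p = 0.00691), and r was 0.785 without the 2 farthest. *Spry2* was likewise related to both lists over all 21 embryos, with r −0.642 (permutation p = 0.0017, adjusted p = 0.00756) and rho −0.564 (permutation p = 0.00862, adjusted p = 0.0246) for the neural tube list, r −0.65 without the 2 farthest, and r 0.65 (permutation p = 0.00136, adjusted p = 0.0068) and rho 0.6 (permutation p = 0.00469, adjusted p = 0.0172) for the muscle list, r 0.534 without the 2 farthest. The part of neural tube and heart tube muscle tissue in the differences of all 10 genes with inverted looping was not tested.

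Levels on 1 side at a time were compared between groups with sex as a covariate, and none of the 10 genes was called by edgeR in the 6 comparisons, which share embryos pairwise. Over all genes 0% to 0.0282% were called in these comparisons. On the left, mutants with inverted looping against those with rightward looping (0.0121% called) had 5 of the 10 genes lower at an unadjusted p under 0.05, as had 5.04% of all genes. These were *Dusp6* (−0.36 ± 0.08, p = 0.00018), *Spry4* (−0.62 ± 0.18, p = 0.00251), *Etv5* (−0.37 ± 0.15, p = 0.0202), *Spry2* (−0.31 ± 0.13, p = 0.0267) and *Fgf8* (−0.48 ± 0.23, p = 0.0482), with the lowest adjusted p at 0.298 in edgeR's quasi-likelihood test. DESeq2 called *Dusp6* there (adjusted p = 0.00868). The median over the 10 genes was −0.29, against 0.01 over all genes tested. *Fgf8* was at −0.27 without mutant embryo 2 with rightward looping.

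Mutants with rightward looping had higher left levels than wild types of 3 of the 10 genes at an unadjusted p under 0.05, as had 3% of all genes, where 0.0242% were called. These were *Dusp6* (0.21, p = 0.0154), *Etv4* (0.43, p = 0.0103) and *Etv5* (0.39, p = 0.0155), each with adjusted p = 0.978 in edgeR's quasi-likelihood test. Without mutant embryo 2 with rightward looping these were 0.19, 0.38 and 0.34, and without wild-type embryo 3 they were 0.18, 0.40 and 0.31, the last with an unadjusted p of 0.0552. The median over the 10 genes was 0.34, against 0.00 over all genes. On the right, *Spry4* alone had an unadjusted p under 0.05. It was at 0.76 ± 0.21 in mutants with inverted looping against wild types (edgeR, adjusted p = 0.733), where 0% of all genes were called and 2.7% were higher at that unadjusted p, and at 0.46 ± 0.17 against mutants with rightward looping (edgeR, adjusted p = 1), where these shares were 0.00805% and 2.1%. By group means *Spry4* was at 24.6 CPM on the left and 19.8 on the right of wild types, 31.2 and 23.6 with rightward looping, and 20.3 and 32.8 with inverted looping.

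Few other genes of the pathway were called between sides. With inverted looping edgeR called none of 15 further FGF genes tested, in either direction. It also called none of 7 receptors and coreceptors and none of 20 adaptors and members of the RAS and ERK cascade. Of 17 further ERK feedback and response genes 1 was called, the immediate early gene *Fos*, higher on the right by 0.95 ± 0.15 (edgeR, adjusted p = 0.0224). The list medians were −0.30, −0.09, 0.02 and 0.07, in that order, against 0.18 for the 10 genes. Of the 15 FGF genes 10 were lower and 5 higher on the right, with 2 each way at an unadjusted p under 0.05. Of the 17 response genes 4 were higher at that p. No gene of these 4 lists was called in wild types, in mutants with rightward looping or in any comparison of ratios or levels between groups.

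Of the most abundant 2 genes of each list per kilobase none was called with inverted looping. Among the receptors *Fgfr1* was at −0.09 (adjusted p = 0.875) and *Fgfr2* at −0.22 (adjusted p = 0.732). In the cascade the GTPase gene *Nras* was at 0.07 (adjusted p = 0.562) and the ERK kinase gene *Map2k1* at 0.00 (adjusted p = 0.995). The FGF genes *Fgf13*, which encodes an intracellular FGF and no secreted ligand, and *Fgf4* were at 0.15 (adjusted p = 0.435) and −0.50 (adjusted p = 0.452). Among the response genes *Ier2* was at 0.03 (adjusted p = 0.902) and the phosphatase gene *Dusp9* at 0.26 (adjusted p = 0.099). All these adjusted p-values are from edgeR's quasi-likelihood test.

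Heart field markers were also listed. With inverted looping 2 of 13 anterior second heart field genes were called higher on the right, *Mef2c* (0.73) and *Nkx2-5* (1.06), and 3 of 9 posterior ones, *Tbx5* (0.74), *Wnt2* (0.59) and *Osr1* (0.60). *Gata4*, the second of the posterior list by CPM, was at 0.55 (edgeR, adjusted p = 0.28). Both lists went both ways. In the anterior list 7 genes were lower on the right and 6 higher, 3 and 4 of them at an unadjusted p under 0.05, with a median of −0.12. In the posterior list 3 were lower and 6 higher, 2 and 4 of them at that p, with a median of 0.24. *Fgf8* and *Fgf10* belong to the anterior list, and edgeR with all embryos called neither, while DESeq2 called *Fgf8* (0.35, adjusted p = 0.0292). The summed level of the other 11 anterior genes was on the contrary higher on the right in 5 of 5 embryos with inverted looping, by a mean log2 ratio of 0.34 ± 0.19 (SD), at 396 to 552 CPM on the left and 486 to 663 on the right. The sum weights genes by their CPM, and *Mef2c* (mean 157 CPM) and *Nkx2-5* (mean 97.0 CPM) had the most. The direction of the sum was that of *Spry4* and *Fgf8*, while 7 of the 13 single genes were lower on the right. The mean log2 ratio of the sum was 0.02 in wild types and 0.04 in mutants with rightward looping. The posterior sum was higher on the right in 4 of 5 embryos with inverted looping, by 0.26 ± 0.21. The part of heart field tissue in the differences of the 10 genes was not tested. Marker genes beyond the 2 with the highest CPM of a list are named because they were called, after their values were seen. *Isl1* and *Sox1* are exceptions, named for their levels. Sums of the other tissue lists with inverted looping were higher on the right in 5 of 5 embryos for endothelium (mean log2 ratio 0.23 ± 0.06, SD). For endoderm this held in 4 of 5 (0.46 ± 0.35) and for paraxial mesoderm in 1 of 5 (−0.70 ± 0.57). Means were −0.17 for otic and surface ectoderm, −0.20 for neural crest and −0.24 for blood. The part of these tissues was not tested either. No gene of these other tissue lists was called between sides by edgeR in any group. With inverted looping the 2 genes of highest CPM in each, which need not be the highest per kilobase, were at 0.57 and 0.61 for *Krt18* and *Krt8* (endoderm), −0.18 and −0.34 for *Pax8* and *Tfap2c* (otic and surface ectoderm), −0.25 and 0.12 for *Ets1* and *Tfap2a* (neural crest), −0.70 and −0.19 for *Meox1* and *Pax1* (paraxial mesoderm), 0.16 and 0.45 for *Kdr* and *Tek* (endothelium) and −0.26 and −0.20 for *Hbb-bh1* and *Hba-x* (blood).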

How the data were processed

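Poly(A) RNA from the left and right heart fields of 21 embryos was sequenced as paired reads. The authors trimmed adapters, removed duplicates, used STAR for alignment to GRCm39 and featureCounts of Subread 2.0.6 for counting per gene, and they deposited these raw counts without normalization or a filter. The strand setting and the treatment of reads on several genes are not given in the sources used here, so genes that overlap on opposite strands are uncertain. Duplicates were removed without molecular identifiers being named, and depth bounds precision only through counting error.

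Groups were genotype and looping direction as the labels give them. The laterality clusters of the study are in no label and were not used here. Counts were normalized by TMM and tested with the quasi-likelihood test of edgeR 4.0.16 in R 4.3.3, after filterByExpr (min.prop 0.2, large.n 50, min.count 5 and min.total.count 10), with Benjamini-Hochberg adjustment over all genes. Tests between sides carried the embryo as a block, because the labels name the embryo of each library. Both libraries of an embryo deviated from their group means with a median correlation of 0.302 over the 2000 most variable genes (lowest −0.0866, over 0.1 in 18 of 21 embryos). Over the 861 pairs of libraries, chi-square per gene was at least 7.4, so none was a copy. CPM were scaled by TMM, and log2 ratios used a prior count of 2. Exact tests were two-sided. DESeq2 1.42.0, other normalizations, filters, blocks, sexes and left-out embryos were alternatives. The tests were checked on simulated counts. Positions and exon lengths came from GENCODE vM39, and promoters, before canonical transcripts, were read from GRCm39.

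The 10 genes, the other lists and the relations to markers were chosen with earlier results of these data known. Named were all 10 genes and genes of 4 further pathway lists that were called or were the most abundant 2 of a list per kilobase. Also named were the 5 genes most like each ligand and like the mean response, and the 2 genes of highest CPM of each marker list. Further marker genes were named when called, apart from *Isl1* and *Sox1*.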

Additional observations from a re-analysis of the deposited data

Results flagged for a closer look

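The ratio of right over left of *Spry4* differed between mutants with inverted and with rightward looping by 1.12 on the log2 scale, by the test of the difference itself (edgeR's quasi-likelihood test, adjusted p = 0.0184).

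Of 60 groups of 5 embryos screened for 1 library far from the other 4, 6 held one, where chance gives about 1 in 20. The right library of wild-type embryo 3 was low for *Etv4*, at 14.1 CPM against 30.01 to 35.04 in the other wild types, and for *Etv5*, at 75.8 CPM against 147 to 165. The right library of wild-type embryo 4 was high for *Fgf3*, at 43.2 CPM against 8.62 to 17.5. Mutant embryo 3 with inverted looping was high for 3 ligands. On its right *Fgf3* was at 41.1 CPM against 4.65 to 11.5 and *Fgf15* at 34.1 CPM against 5.32 to 8.99. On its left *Fgf10* was at 31.7 CPM against 17.0 to 20.9.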

How the results depend on the processing

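No value changed direction under any alternative among those with a call. Of the 10 genes, 2 were called between sides with inverted looping. DESeq2 called 4 (*Fgf8*, *Fgf15*, *Spry2* and *Spry4*), and without each embryo in turn 0 to 4 were called. With males alone 0 were called, and 0 in a fit of all libraries. Without the replicate block 0 were called. For the difference of ratios between inverted looping and wild types, where none was called, DESeq2, no filter on low counts and at least 10 counts in every library each called 1, *Spry4*, and leaving out embryos called 0 to 2. For inverted against rightward looping, where 1 was called, males alone called 0, the fit without the replicate block called 0 and leaving out embryos called 0 to 1. For left levels of these groups DESeq2 called 1 and edgeR 0. The cause of these changes was not tested, except that left-out embryos and males alone leave fewer embryos. Over all genes with inverted looping edgeR called 468 between sides and DESeq2 1755. The share of all genes called is not given for most of the other alternatives. Their counts therefore do not show whether the 10 genes stood out. The number of embryos, 5 in 2 of the groups, limits the precision of every comparison.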
